A study of Mus musculus with 6 samples.

Results

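The genes described here are 37 mouse genes of apoptosis and necroptosis, measured by RNA sequencing in 3T3-L1 adipocytes with and without knockdown of the RNA-binding protein RBMS1. They were chosen by name from the 45706 genes of the count table and cover the BCL2 family, caspases, the apoptosome and its inhibitors, death receptor signaling, necroptosis kinases, death-associated protein kinases and p53. Of the 37, 34 had enough counts to be tested, among 11440 tested genes in all. The other 3, Bik, Pmaip1 and Dapk2, had no count in any sample, which allows a level of up to 0.220 to 1.49 CPM (library-scaled read counts), depending on the depth of the sample (3 counts, counting error only).

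3T3-L1 is a fibroblast line from mouse embryos that turns into fat cells when treated with IBMX, insulin, dexamethasone and rosiglitazone. All 6 samples came from such cells on day 7 of differentiation. In 3 of them the cells carried a scrambled control shRNA (genotype WT in the labels), and in the other 3 an shRNA against Rbms1 (genotype RBMS1KD). Both shRNAs were delivered by lentivirus and the cells were selected with puromycin, so the controls went through the same selection. The sources used here do not say whether the 3 replicates of a group came from separate transductions, and the p-values measure only the spread between these samples. In bulk RNA, fewer cells of a type and less RNA per cell cannot be told apart.

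Apoptosis runs along a pair of routes that share their executioner caspases. In the mitochondrial route, BH3-only proteins release BAX and BAK1 from their anti-apoptotic relatives, these form pores in the outer mitochondrial membrane, and the cytochrome c that escapes assembles with APAF1 and caspase-9 into the apoptosome. In the death receptor route, ligand-bound receptors recruit FADD and caspase-8, and when caspase-8 is inactive RIPK1, RIPK3 and MLKL can carry out necroptosis, a lytic death. In adipose tissue, adipocyte death is a known feature of obesity and draws in macrophages.

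Total counts ranged from 3142695 to 11073098 per sample, and genes derived from ribosomal RNA took 43.0% of the counts in scrambled control replicate 2 against 8.12% to 17.8% in the others. Levels are CPM scaled by TMM factors, which correct for such differences in composition. Rbms1 itself stood at 113, 102 and 99.6 CPM in the scrambled controls and at 49.2, 61.4 and 84.0 CPM in the knockdown samples. The authors reported that immunoblotting showed the knockdown at the protein level, which was not measured here. In RNA the groups did not overlap, but the fitted change (log2 fold change -0.69, SE 0.20) had an adjusted p of 0.185 in edgeR and did not pass the threshold of 0.1. Without RBMS1 knockdown replicate 3, which held the most Rbms1 of the knockdown samples, it was -0.92 with an edgeR adjusted p of 0.0708, the lowest of 16 alternative analyses that reached up to 0.572. Of 12 adipocyte markers, 11 passed the filter on low counts and Lep did not, at no more than 1.61 CPM in any sample. The summed level of the 12 marker genes was 11430, 12891 and 12310 CPM in the controls and 11955, 6808 and 8911 CPM in the knockdown samples. All 11 tested adipocyte markers had a fitted change below 0, with a median of -0.41, and 1 of them, Retn, passed the threshold, as did 1.22% of all tested genes. Without RBMS1 knockdown replicate 1, 7 adipocyte markers passed it in edgeR (Retn, Slc2a4, Cfd, Lipe, Cebpa, Plin1 and Cidec, adjusted p from 0.00106 to 0.0876), all lower in the knockdown. Of all tested genes, 5.94% passed in that fit. The 12 preadipocyte and fibroblast markers summed to 13744 to 16121 CPM in the controls, 8663 CPM in RBMS1 knockdown replicate 1, 18209 CPM in replicate 2 and 18231 CPM in replicate 3. Of these 12, 8 had a fitted change below 0, with a median of -0.15. In edgeR none of them passed the threshold and 2, Pdgfra and Dlk1, had an unadjusted p under 0.05 (12.4% of all tested genes did). Both were lower in the knockdown with no overlap between the groups (18.5% of all tested genes did not overlap). DESeq2 called Pdgfra, and it called 3.2% of the genes it gave an adjusted p. Without RBMS1 knockdown replicate 1, edgeR called Pdgfra (log2 fold change -0.63, adjusted p 0.0665) and, in the other direction, Acta2 (1.09, 0.0938). Of 10 macrophage markers, 5 (Adgre1, Ptprc, Mrc1, C1qa and C1qb) were at 0 throughout and all 10 together summed to at most 9.69 CPM. The part that these differences in marker levels have in the results below was not tested.

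Of the 34 tested genes, 1 passed the threshold of an edgeR adjusted p of 0.1. This was Dapk1, which was lower in the knockdown cells. Bid, at more than double its control level, fell just short of it. Across all 11440 tested genes 140 passed (1.22%), 104 of them lower in the knockdown (0.909%), so 1 of 34 (2.94%) is a small count set against a low background. At an unadjusted p under 0.05 there were 4 (Dapk1, Bid, Casp8 and Cflar), or 11.8% of the 34 against 12.4% of all tested genes. DESeq2 called Dapk1 and Bid, 5.88% of the 34 against 3.2% of the genes it gave an adjusted p, and limma-voom called Dapk1 alone. In 7 genes the 3 knockdown samples lay wholly above or wholly below the 3 controls (20.6% against 18.5% of all tested genes). Of these, 5 were higher in the knockdown (14.7% against 8.96%).

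**Figure D1:**
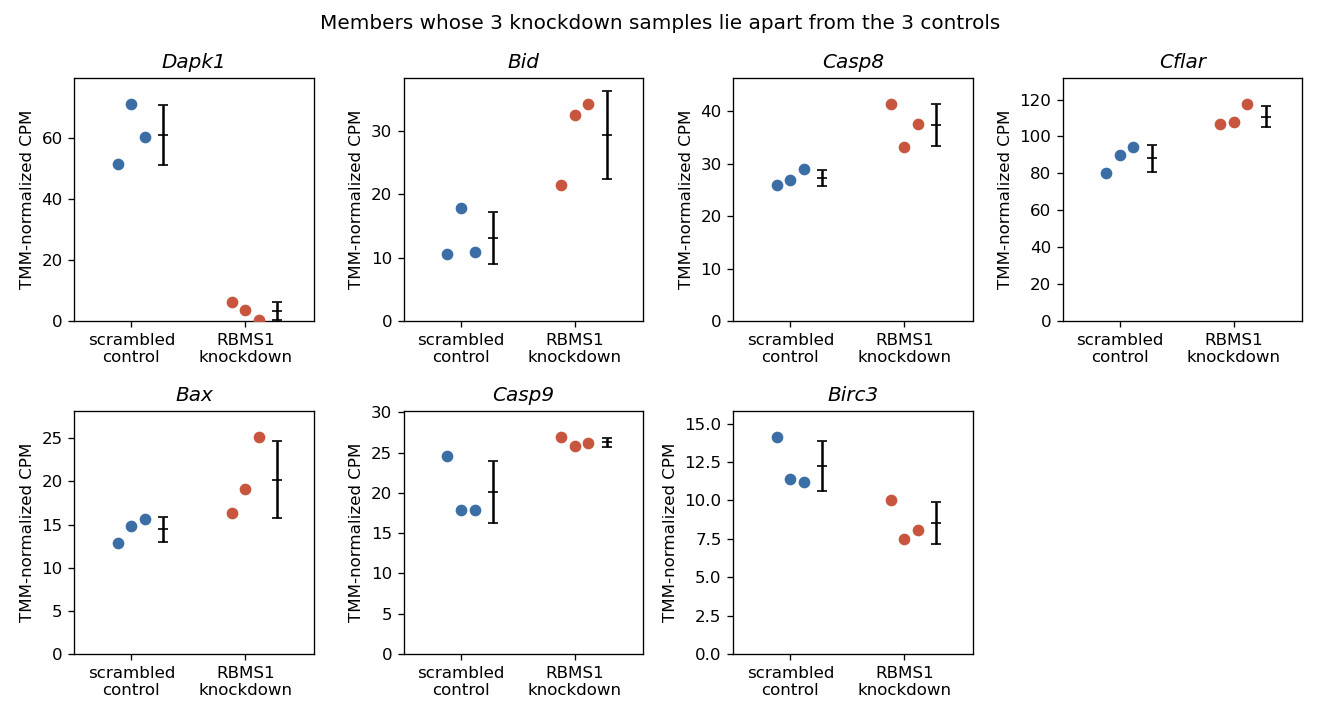
Expression in TMM-normalized CPM (linear axis from 0) of the 7 genes whose 3 knockdown samples lay apart from the 3 controls. Points are samples and black bars are the mean and SD of each group (n = 3). Dapk1 and Birc3 were lower in all 3 knockdown samples, and Bid, Casp8, Cflar, Bax and Casp9 were higher.

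In direction, 24 of the 34 fitted changes were above 0 and 10 below (70.6% above, against 50.4% of all tested genes). Their median was 0.15 on the log2 scale, against 0.0044 for all tested genes. The 95% interval of the change lay within 2-fold either way for 26 of the 34, so for these genes a larger change than that is outside the interval. RBMS1 knockdown replicate 3 was the sample with the highest level for 12 of the 34 genes, while it was the highest for 18.0% of all tested genes.

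**Figure D2:**
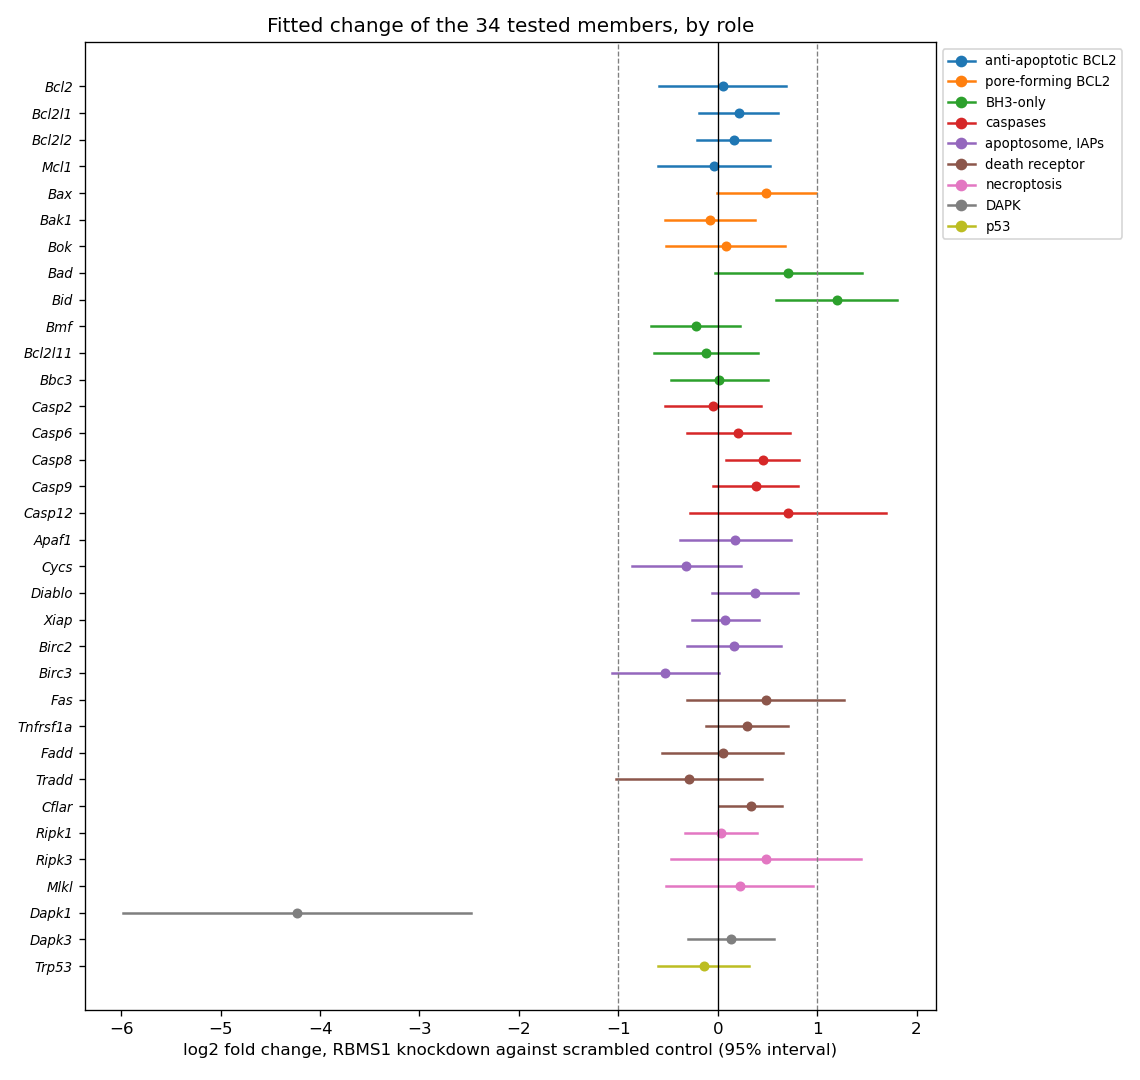
Fitted log2 fold change (point) and its 95% interval (line) of the 34 tested genes in RBMS1 knockdown against scrambled control cells, coloured by role, with dashed lines at 2-fold either way. Dapk1 at -4.23 stands far to the left of the others, and Bid, Casp8 and Cflar are the only genes whose interval lies wholly above 0.

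Death-associated protein kinases are serine/threonine kinases that take part in cell death and autophagy, and Dapk1 encodes a member regulated by calcium and calmodulin. Dapk1 (ENSMUSG00000021559, GRCm38 chromosome 13, 60601947 to 60763191, plus strand) had 51.6, 71.0 and 60.2 CPM in the scrambled controls and 6.33, 3.51 and 0.220 CPM in the knockdown samples. The groups were far apart, with the highest knockdown sample well under the lowest control. The same samples held 322, 143 and 350 Dapk1 reads in the controls and 44, 30 and 3 in the knockdown, the last being the deepest library. The fitted log2 fold change was -4.23 (SE 0.78, 95% interval -5.98 to -2.49), with an edgeR adjusted p of 0.0604, which passed 0.1 but not 0.05. The call was lost without any 1 of the 3 scrambled controls (edgeR adjusted p 0.151 without replicate 1, 0.156 without replicate 2 and 0.215 without replicate 3) and without RBMS1 knockdown replicate 2 (0.222). In all 16 alternative analyses the change stayed between -5.58 and -3.62, with adjusted p from 0.00116 to 0.222, and Dapk1 passed the threshold in 11 of them.

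Dapk2 was at 0. Dapk3, the remaining kinase of the family, was at 16.7, 18.4 and 16.7 CPM in the controls and at 16.4, 18.4 and 21.8 CPM in the knockdown samples, so the groups overlapped (log2 fold change 0.13, SE 0.19, 95% interval -0.30 to 0.57). Per length, in RPKM (CPM divided by the exon length in kilobases), Dapk1 and Dapk3 stood close together in the controls, at 6.76 ± 1.08 and 6.81 ± 0.384 (SD, n = 3). In the knockdown cells they were at 0.372 ± 0.339 and 7.44 ± 1.08 RPKM. Dapk1 thus made up 46.5%, 52.1% and 50.3% of the summed RPKM of the family in the controls and 9.78%, 5.10% and 0.283% in the knockdown samples (exact permutation test, two-sided, p = 0.1, the smallest that 3 against 3 samples allow). With Dapk2 at 0 and little change in Dapk3, this share restates the Dapk1 levels above, so its test adds no separate support. Within 1 Mb on either side of Dapk1, 7 other genes were tested, of which 3 had a change above 0 and 4 below, with a median of -0.0093. None of these 7 passed the threshold in edgeR, and the smallest adjusted p among them was 0.501.

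Because Dapk1 and Bid moved furthest, and Casp8 and Cflar are neighbours on a chromosome whose genes lay higher as a whole, the RefSeq promoter windows of these genes are printed here (GRCm38.p6, 250 bases before to 50 after the annotated start, written 5′ to 3′ on the strand of the gene). Capitals mark the GC box GGGCGG, a letter string bound by SP1-family factors, or its complement on the other strand.
Dapk1, chr13:60601961-60602260, plus strand: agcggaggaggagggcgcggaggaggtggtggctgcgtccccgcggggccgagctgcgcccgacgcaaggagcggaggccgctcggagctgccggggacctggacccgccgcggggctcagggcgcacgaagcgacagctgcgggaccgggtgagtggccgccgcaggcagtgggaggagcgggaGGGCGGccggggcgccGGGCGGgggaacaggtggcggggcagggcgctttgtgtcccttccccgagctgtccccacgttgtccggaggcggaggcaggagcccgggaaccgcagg
Bid, chr6:120916775-120917074, minus strand: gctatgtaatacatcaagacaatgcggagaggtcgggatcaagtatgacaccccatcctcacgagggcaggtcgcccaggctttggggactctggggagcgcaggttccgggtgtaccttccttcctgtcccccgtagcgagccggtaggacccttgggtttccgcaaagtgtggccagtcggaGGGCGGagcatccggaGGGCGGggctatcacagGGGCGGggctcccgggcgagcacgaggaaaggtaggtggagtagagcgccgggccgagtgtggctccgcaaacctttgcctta
Casp8, chr1:58802252-58802551, plus strand: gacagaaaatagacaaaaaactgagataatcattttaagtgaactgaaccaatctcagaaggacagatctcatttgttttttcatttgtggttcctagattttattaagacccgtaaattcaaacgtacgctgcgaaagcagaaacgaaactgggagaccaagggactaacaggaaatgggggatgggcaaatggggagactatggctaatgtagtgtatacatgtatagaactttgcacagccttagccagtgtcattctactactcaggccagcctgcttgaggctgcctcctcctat
Cflar, chr1:58711241-58711540, plus strand: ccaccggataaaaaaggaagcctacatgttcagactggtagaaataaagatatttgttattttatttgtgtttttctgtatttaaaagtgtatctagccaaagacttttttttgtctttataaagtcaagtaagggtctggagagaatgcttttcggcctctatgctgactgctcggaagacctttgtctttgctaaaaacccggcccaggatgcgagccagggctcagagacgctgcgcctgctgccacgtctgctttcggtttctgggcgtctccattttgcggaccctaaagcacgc
The Dapk1 window held 2 GC boxes and 38 CpG dinucleotides in a sequence of 77.7% G and C, and the Bid window held 3 GC boxes and 22 CpG dinucleotides. The Casp8 and Cflar windows held no GC box, with 5 and 12 CpG dinucleotides, and the Cflar window held TATAAA 2 times, counting both strands. The Dapk1 and Casp8 windows begin inside the genes as GENCODE annotates them, and the last bases of the Dapk1 window were found in none of the annotated Dapk1 transcripts.

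RefSeq windows matched 34 of the 37 genes, with 48 windows since some genes have several starts. A GC box on either strand was in 31 of the 48 (64.6%), against 64.3% of the 10765 windows of tested genes and 35.7% of all 32851 windows. TATAAA on either strand was in 6.25% of them, against 6.73% for tested genes. The E-box CACGTG was in 10.4% and 10.2%, the cAMP response element TGACGTCA in 6.25% and 3.15%, and the glucocorticoid response half-site AGAACA in 8.33% and 11.7%, each on either strand. The cAMP response element rests on 3 windows, of Birc2, Cycs and Dapk3. The NF-kB consensus was in 12.5% and 10.3%, and the p53 half-site in 8.33% and 6.65%. The windows held a median of 20.5 CpG dinucleotides, against 21 for tested genes and 7 for all.

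RBMS1 is known to bind A- and U-rich RNA, so the string ATATA was also counted in the 3′ UTR of each gene, on the sense strand. It occurred in 24 of the 34 tested genes (70.6%, 1.19 per kb), against 60.2% and 1.42 per kb for all tested genes with an annotated 3′ UTR. The 934-base 3′ UTR of Dapk1 held none, and that of Bid held 1, at position 1355 of 1670, shown here with its flanks and the string in capitals.
Bid 3′ UTR: agagcaggggaaATATAggtccaggagaa

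The BH3-only proteins sense damage and set off the mitochondrial route. Bid, which caspase-8 cleaves to carry a death receptor signal to the mitochondria, was the gene furthest up. Bid (ENSMUSG00000004446, GRCm38 chromosome 6, 120891930 to 120916853, minus strand) was at 10.6, 17.9 and 10.8 CPM in the controls and at 21.4, 32.6 and 34.2 CPM in the knockdown samples. All 3 knockdown samples were above all 3 controls, although the lowest of them was near the highest control. The log2 fold change was 1.20 (SE 0.27, 95% interval 0.59 to 1.81), with an edgeR adjusted p of 0.109, just outside the threshold, and a DESeq2 adjusted p of 0.00808. Bid passed the threshold in 5 of the 16 alternative analyses, with adjusted p from 0.00808 to 0.374. Without RBMS1 knockdown replicate 1, 696 of 11724 tested genes (5.94%) passed, and Bid (log2 fold change 1.38, edgeR adjusted p 0.0209) and Dapk1 (-5.09, 0.0110) were the 2 of the 34 that did.

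Bid overlaps Bcl2l13, a mitochondrial BCL2 relative on the opposite strand, and whether reads were counted by strand is not given in the sources used here. Bcl2l13 was at 114, 132 and 131 CPM in the controls and at 156, 94.3 and 97.7 CPM in the knockdown samples, and its groups overlapped. The part of its reads in the counts of Bid was not tested. Among the 12 other genes tested within 1 Mb of Bid, 9 had a change above 0 and the median was 0.24, with none past the threshold in edgeR (smallest adjusted p 0.252) and Usp18 the highest.

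The other BH3-only genes overlapped between the groups. Bbc3, which encodes PUMA, a p53-induced activator of BAX, had the highest level per length of the group, with 25.0, 15.9 and 19.8 CPM in the controls and 19.3, 18.8 and 23.7 CPM in the knockdown (log2 fold change 0.02, 95% interval -0.47 to 0.51). Bad, which binds BCL-XL when dephosphorylated, had a fitted change of 0.71 with an interval from -0.03 to 1.45. Its locus overlaps Gpr137 on the opposite strand. Bcl2l11, which encodes BIM, and Bmf had values of -0.12 and -0.22. Bik and Pmaip1, which encodes NOXA, were at 0. The summed RPKM of the group was 29.1, 22.0 and 25.5 in the controls and 26.7, 31.5 and 38.5 in the knockdown (exact permutation test, two-sided, p = 0.2). Bid made up 15.0% ± 6.87 of that sum in the controls and 25.6% ± 3.33 in the knockdown samples (SD, n = 3, exact permutation p = 0.2).

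Caspases are the proteases of apoptosis, of which caspase-2, caspase-8 and caspase-9 start the cascade and caspase-6 carries it on. Casp8, the death receptor initiator that also holds necroptosis in check, was at 26.0, 26.8 and 28.9 CPM in the controls and at 41.3, 33.2 and 37.4 CPM in the knockdown. The groups did not overlap (log2 fold change 0.45, SE 0.16, 95% interval 0.08 to 0.82), and the edgeR adjusted p was 0.295. With the median of its chromosome removed the change was 0.21. Casp9, the caspase of the apoptosome, was at 24.5, 17.9 and 17.9 CPM in the controls and at 26.9, 25.8 and 26.1 CPM in the knockdown. Its knockdown samples lay close together just above the highest control (log2 fold change 0.38, SE 0.19, edgeR adjusted p 0.460).

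Casp12, a caspase of the endoplasmic reticulum in mice, had a fitted change of 0.70 with a wide interval (-0.28 to 1.69) on 380 reads in all. Casp6 and Casp2 had values of 0.21 and -0.05. Summed over the 5 genes, the caspase level was 19.8, 17.9 and 19.0 RPKM in the controls and 25.6, 23.4 and 25.6 RPKM in the knockdown samples. That is 18.9 ± 0.925 against 24.9 ± 1.28 RPKM (SD, n = 3), with no overlap and an exact permutation p of 0.1 (two-sided), the smallest possible. Casp8 had the highest level per length of the 5 in both groups, at 9.41 ± 0.523 and 12.9 ± 1.39 RPKM.

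**Figure D3:**
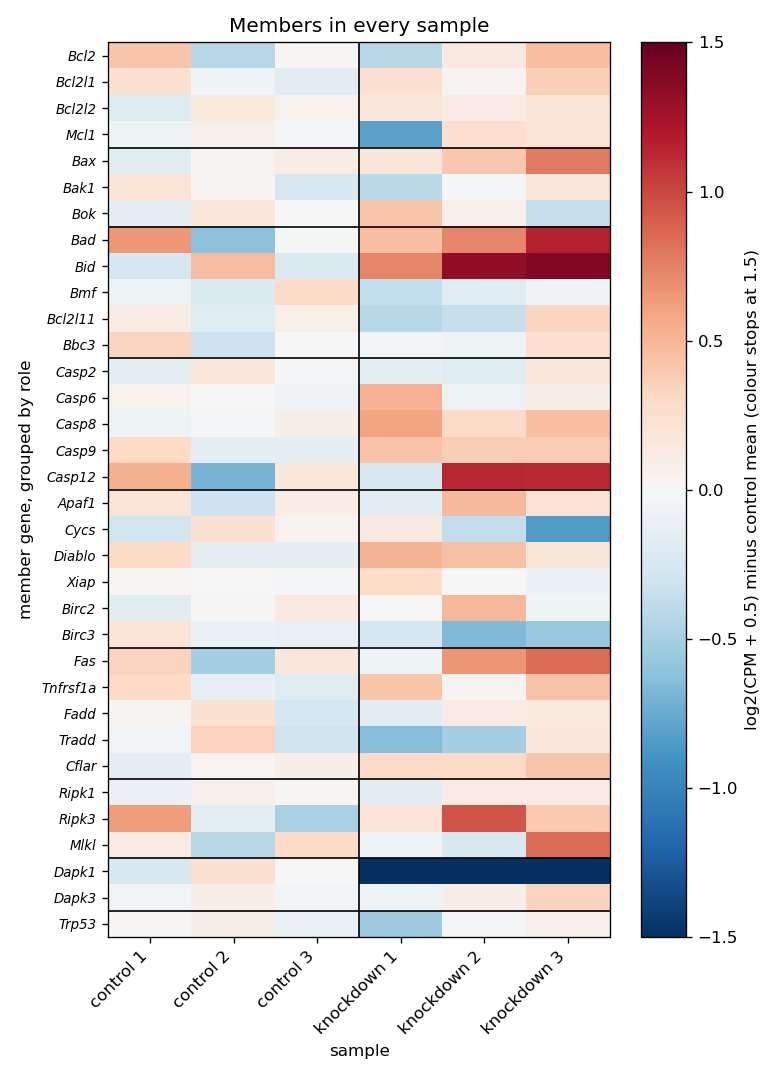
Level of each tested gene in each sample as log2(CPM + 0.5) minus the mean of the 3 controls, with genes in rows grouped by role and samples in columns, and colour cut at 1.5 either way. Dapk1 is the darkest blue row in the 3 knockdown columns, Bid is red in all 3, and Mcl1 is blue in RBMS1 knockdown replicate 1 alone.

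In the death receptor route, Tnfrsf1a, the main receptor for TNF, had the highest level per length, with 177, 133 and 127 CPM in the controls and 193, 148 and 193 CPM in the knockdown samples (log2 fold change 0.29, SE 0.18, edgeR adjusted p 0.563). The groups overlapped through scrambled control replicate 1. Cflar, which encodes cFLIP, an inactive caspase-8 relative that blocks its activation, was at 80.0, 89.8 and 94.5 CPM in the controls and at 107, 108 and 117 CPM in the knockdown. The groups did not overlap (log2 fold change 0.33, SE 0.14, 95% interval 0.01 to 0.65), with an edgeR adjusted p of 0.383. Over all tested genes of chromosome 1, where both Cflar and Casp8 lie, the median change was 0.25, and with that median removed Cflar stood at 0.08 and Casp8 at 0.21. The ratio of Casp8 to Cflar in RPKM was 1.36 ± 0.0592 in the controls and 1.48 ± 0.185 in the knockdown (SD, n = 3, exact permutation p = 0.4, two-sided). Fas, the receptor for FAS ligand, had a fitted change of 0.48 with an interval from -0.30 to 1.27, and the adaptors Fadd and Tradd had values of 0.05 and -0.29.

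The necroptosis genes showed no separation between the groups. Ripk3, the kinase that phosphorylates MLKL, was low, with 5.45, 2.98 and 2.24 CPM in the controls and 3.88, 6.90 and 4.55 CPM in the knockdown samples, on 6 to 62 reads per sample. Its fitted change of 0.49 had an interval from -0.47 to 1.44, so neither no change nor a doubling is outside it, and with 1 sample left out it ranged from 0.21 to 1.02. Mlkl, the pseudokinase that breaks the plasma membrane, was at 13.3, 8.93 and 15.0 CPM in the controls and at 11.5, 10.2 and 22.1 CPM in the knockdown (log2 fold change 0.22, interval -0.52 to 0.96). RBMS1 knockdown replicate 3 alone lay above the controls, and without it the change was -0.21. With the median of its chromosome removed, the change of Mlkl was 0.59 (edgeR adjusted p 0.619). Ripk1, which sits at the branch between survival, apoptosis and necroptosis, had a fitted change of 0.03 with a narrow interval from -0.33 to 0.39. It overlaps Serpinb6a on the opposite strand.

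In the BCL2 family, the pore-forming Bax was higher in each knockdown sample than in any control, at 12.8, 14.9 and 15.7 CPM against 16.4, 19.2 and 25.1 CPM. Its log2 fold change was 0.49 (SE 0.22, 95% interval -0.01 to 0.99), with an edgeR adjusted p of 0.408. Bak1, the pore former with the higher level per length, was at 46.8, 41.7 and 34.4 CPM in the controls and at 30.5, 40.0 and 45.9 CPM in the knockdown (log2 fold change -0.08, interval -0.53 to 0.37). Bok, a relative of both, had a value of 0.08. The summed RPKM of the pore formers was 31.8 ± 1.75 in the controls and 34.8 ± 4.38 in the knockdown (SD, n = 3, exact permutation p = 0.4, two-sided).

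Among the anti-apoptotic members, which bind and hold BAX, BAK1 and the BH3-only proteins, Mcl1 had the highest level per length. It was at 113, 125 and 117 CPM in the controls and at 67.6, 141 and 136 CPM in the knockdown, with RBMS1 knockdown replicate 1 far below and the other two above every control. The fitted change was -0.04 (SE 0.25), and 0.24 without that sample. Bcl2, Bcl2l1 (which encodes BCL-XL) and Bcl2l2 (BCL-W) had values of 0.05, 0.21 and 0.16. The summed anti-apoptotic level was 50.9 ± 1.51 RPKM in the controls and 52.0 ± 12.5 RPKM in the knockdown (SD, n = 3, exact permutation p = 1, two-sided). The ratio of Bax to Bcl2 was 3.06, 6.46 and 4.94 in the controls and 7.05, 5.54 and 5.81 in the knockdown, and the groups overlapped (exact permutation p = 0.4, two-sided).

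Of the apoptosome genes, Cycs, which encodes somatic cytochrome c, had the highest level per length of all the genes described when averaged over the 6 samples, with 216, 306 and 271 CPM in the controls and 288, 202 and 146 CPM in the knockdown (log2 fold change -0.32, SE 0.25, interval -0.87 to 0.24, and from -0.59 to -0.10 with 1 sample left out). RBMS1 knockdown replicates 2 and 3 lay below every control and replicate 1 among them. Apaf1, the apoptosome scaffold, had a value of 0.18, and Diablo, which encodes SMAC, an antagonist of the inhibitors of apoptosis, 0.37. Among those inhibitors, Birc3 (cIAP2, a ubiquitin ligase of the TNF receptor complex) was at 14.1, 11.4 and 11.2 CPM in the controls and at 10.1, 7.48 and 8.07 CPM in the knockdown. Its groups did not overlap (log2 fold change -0.53, SE 0.24, edgeR adjusted p 0.409). Birc2, its neighbour 11.6 kb away on the same strand, had a value of 0.17, and Xiap, the direct caspase inhibitor, 0.08. Trp53, the gene of p53, was at 28.1, 29.3 and 25.6 CPM in the controls and at 18.8, 27.0 and 29.1 CPM in the knockdown (log2 fold change -0.14, interval -0.60 to 0.32).

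Ordered by the mean RPKM over all 6 samples, Cycs at 69.9 and Tnfrsf1a at 62.5 overlapped, with Cycs above in the mean of the controls (77.6 ± 13.4 against 56.2 ± 10.6, SD, n = 3) and Tnfrsf1a above in that of the knockdown samples (68.7 ± 10.1 against 62.3 ± 21.0). Mcl1 at 34.1 lay apart from both its neighbours, and Bak1 followed at 16.6. From Bak1 down to Apaf1 at 1.49, each gene overlapped the next in the order over its samples.

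**Figure D4:**
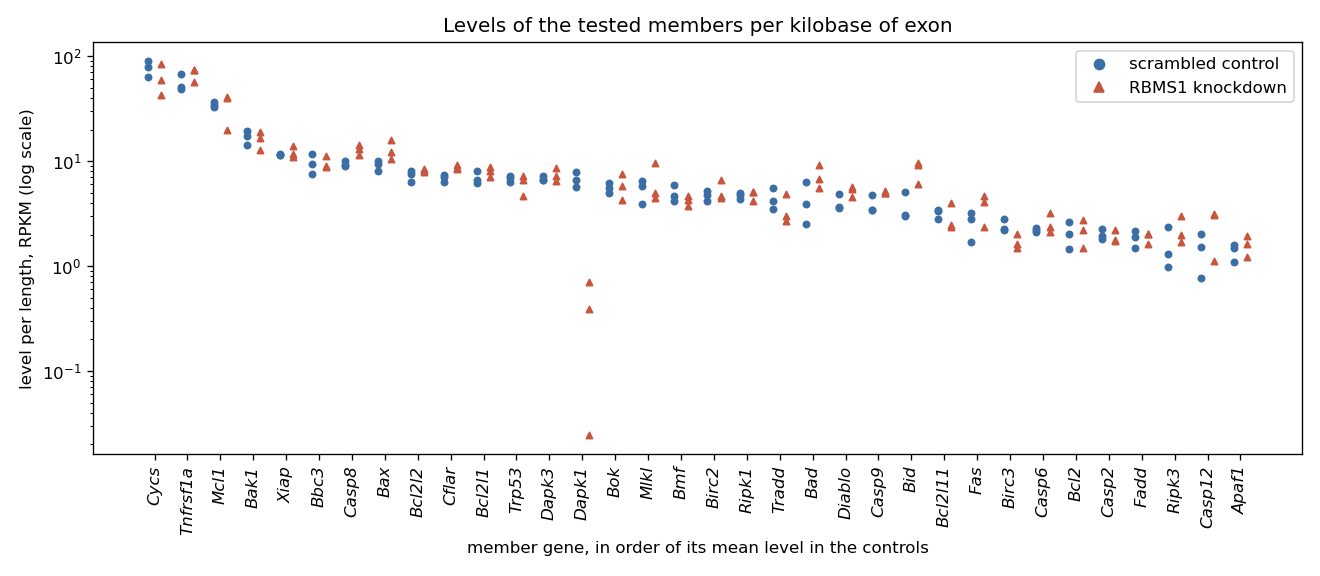
Level per length in RPKM (log axis) of the 34 tested genes, in order of their mean in the scrambled controls (circles), with the RBMS1 knockdown samples (triangles) beside them. Cycs, Tnfrsf1a and Mcl1 are the highest, and the 3 Dapk1 knockdown samples are the lowest points drawn.

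Fitted changes differed by chromosome over all tested genes. Among chromosomes with at least 50 tested genes, the median was 0.25 for the 675 genes of chromosome 1, 0.19 for the 567 of chromosome 6 and -0.38 for the 624 of chromosome 8, where 90.1% were below 0. The 15 tested genes of the mitochondrial genome, which holds none of the genes described, had a median of -0.70. Measured in each sample against the control mean, chromosome 1 stood at 0.25, 0.26 and 0.24 in the knockdown samples, chromosome 6 at 0.15, 0.17 and 0.19, and chromosome 8 at -0.35, -0.41 and -0.35. Casp8 and Cflar lie 36.5 kb apart on chromosome 1, Bid lies on chromosome 6, and Mlkl and Tradd lie on chromosome 8. The adipocyte marker Retn lies on chromosome 8 too. With the median of each chromosome removed, Casp8 was at 0.21 (edgeR adjusted p 0.740, from 0.231 to 0.740 over all 16 alternatives) and Cflar at 0.08 (0.894, from 0.250 to 0.894). In the same fit Bid was at 1.01 (edgeR adjusted p 0.199) and Dapk1 at -4.27 (0.0719). Mlkl was at 0.59 (edgeR adjusted p 0.619) and Tradd at 0.09 (0.956). Of the other genes on chromosome 6, Tnfrsf1a was at 0.11 (0.896) and Cycs at -0.49 (0.564). Of the 34 genes, 23 were then above 0, with a median of 0.10, against 49.99% above 0 and a median of -0.00011 for all tested genes. At an unadjusted p under 0.05 were Dapk1, Bid, Bax and Birc3, or 11.8% of the 34 against 9.93% of all tested genes in the same fit. Among the 23 other genes tested within 1 Mb of Casp8, 18 had a change above 0, with a median of 0.24.

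**Figure D5:**
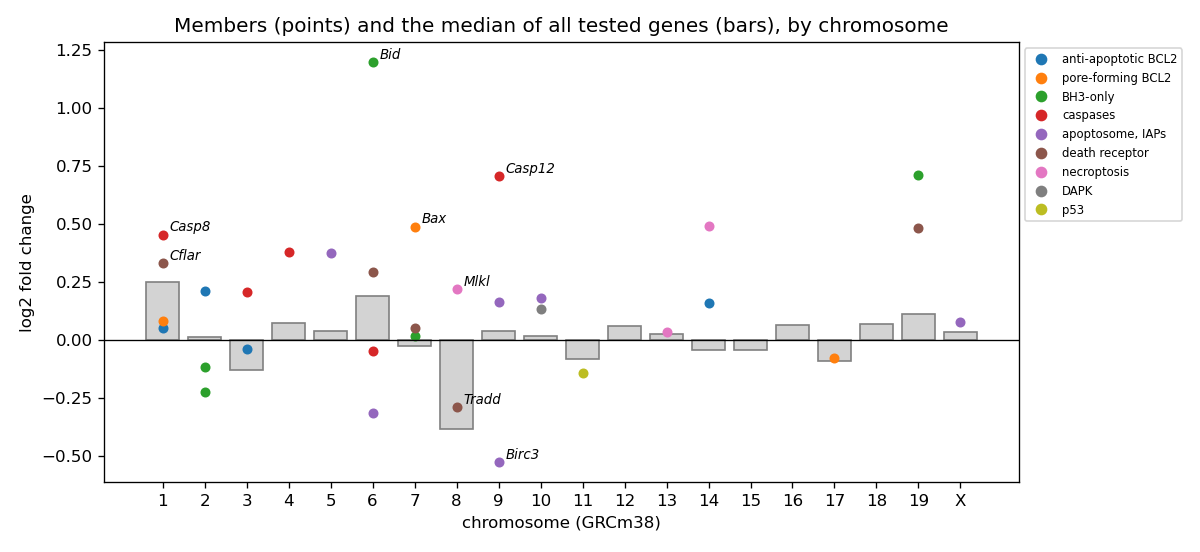
Fitted log2 fold change of the tested genes described (points, coloured by role) at their chromosome, over bars for the median of all tested genes there. Dapk1 on chromosome 13, at -4.23, is not drawn. Casp8 and Cflar stand above a raised chromosome 1 bar at 0.25, Bid far above the chromosome 6 bar at 0.19, and chromosome 8 is the lowest bar drawn at -0.38 (the mitochondrial genome is not drawn).

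The rest of the pathway was followed with 76 further apoptosis and necroptosis genes, of which 58 were tested. Of these, 24 were above 0 and 34 below, with a median of -0.05, against 50.4% above 0 and a median of 0.0044 for all tested genes. None passed the threshold in edgeR or limma-voom, 6 had an unadjusted edgeR p under 0.05 (12.4% of all tested genes did), and DESeq2 called 2 (3.2% of all genes with an adjusted p). Among them was Cyld, a deubiquitinase that acts on RIPK1, at 51.8, 66.5 and 66.2 CPM in the controls and 44.6, 35.3 and 33.7 CPM in the knockdown (DESeq2 adjusted p 0.0767). Cyld lies on chromosome 8, and all 3 knockdown samples were below all 3 controls. Without RBMS1 knockdown replicate 1, edgeR called 6 of the list, Bag4, Bnip3, Cyld, Endog and Vdac3 among them, where it called 5.94% of all tested genes. Like Cyld, Bag4 and Vdac3 lie on chromosome 8.

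Of 34 p53 target genes, 5 of them also described above, 30 were tested, 16 above and 14 below 0 with a median of 0.03, beside the 50.4% above 0 of all tested genes. None passed in edgeR or limma-voom, 6 had an unadjusted edgeR p under 0.05 (12.4% of all tested genes), and DESeq2 (3.2% of all) called Btg2, an antiproliferative gene, at 234, 183 and 207 CPM in the controls and 47.0, 144 and 77.7 CPM in the knockdown (DESeq2 adjusted p 0.0143). Of the p53 targets, edgeR called Btg2 (log2 fold change -0.90, adjusted p 0.0774) and Eda2r (1.23, 0.0698) without RBMS1 knockdown replicate 1. Of 20 NF-kB target genes, 3 of them also described above, 17 were tested, 6 above and 11 below 0 with a median of -0.19 (50.4% of all tested genes were above 0). None passed in edgeR, DESeq2 or limma-voom, and 3 had an unadjusted edgeR p under 0.05, which 12.4% of all tested genes did. Without RBMS1 knockdown replicate 1, edgeR called 3 of them, Vcam1 higher (log2 fold change 0.98, adjusted p 0.0435) and Nfkbia (-0.70, 0.0653) and Sod2 (-0.50, 0.0935) lower, where it called 5.94% of all tested genes. Of the 3 CIDE genes, lipid droplet proteins with homology to a DNA fragmentation factor, Cidec alone was tested and had a value of -0.28, or -0.70 with an edgeR adjusted p of 0.0876 without RBMS1 knockdown replicate 1.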

How the data were processed

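RNA of 3 scrambled control and 3 RBMS1 knockdown cultures was sequenced from ribosomal RNA-depleted stranded libraries. The authors used Trim Galore 0.6.7 for trimming, STAR 2.7.10a for alignment to the GRCm38 build and Salmon 1.9.0 for gene counts. They deposited these as estimated counts per gene, without normalization. The annotation release and any use of strand in counting are not given in the sources used here. Estimated counts, not all of which were whole, were rounded.

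Changes were tested with edgeR 4.0.16 in R 4.3.3 (filterByExpr, TMM, glmQLFit, glmQLFTest) with condition as the single term, Benjamini-Hochberg adjusted over 11440 genes and a threshold of 0.1. The SE is the log2 fold change divided by the square root of F. Of the 45706 genes, 26300 had no count in any sample. CPM used TMM-scaled library sizes, and RPKM the merged exon length of GENCODE M21. Exact permutation tests, which with 3 against 3 cannot go below 0.1, were two-sided. DESeq2 1.42.0 and limma 3.58.1 (voom) were alternatives. Other alternatives were RLE factors, library sizes alone, ribosomal RNA genes removed, no filter or 1 CPM in 3 samples, a replicate block, chromosome medians removed (chromosome 3 parted at 50 Mb), each sample left out, and, added after the data were seen, edgeR's earlier dispersion estimates. Promoters are RefSeq, GRCm38.p6.

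The genes and lists were chosen with earlier results of these data known. Values in every sample are given for genes with an edgeR or DESeq2 adjusted p of 0.1 or less or an unadjusted edgeR p under 0.05, for those whose groups did not overlap, for the highest RPKM of each role, and for Trp53, Casp8, Ripk3 and Mlkl. Genes of other lists are named where called by a tool, except for an item that is not reported here. Bcl2l13, Usp18 and the other overlapping genes were named for their position after values were seen.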

Additional observations from a re-analysis of the deposited data

How the results depend on the processing

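Of the named single-gene changes, 247 values over the 16 alternatives kept their direction and their side of the threshold, 5 lost the call, 6 gained it and 14 changed sign. The genes passing the threshold numbered 140, against 268 with no filter, 430 with DESeq2, 71 with chromosome medians removed and 12 to 696 with 1 sample left out. Of the cell death genes, 2 passed with library sizes alone, without ribosomal RNA genes, with no filter and with DESeq2, and 0 to 2 with 1 sample left out. Their median was 0.52 with library sizes alone, a scaling that moved the median of all genes by 0.37. Of the 76 further genes, 2 were called by DESeq2 and 0 to 6 with 1 sample left out. The p53 targets gave 1 with no filter, 1 with DESeq2 and 0 to 2 with 1 sample left out, and the NF-kB targets 0 to 3. In each of these lists the highest count came without RBMS1 knockdown replicate 1. This tally covers Rbms1 and the cell death genes whose values are given in every sample. Bak1, Cycs, Mcl1 and Trp53 changed sign with library sizes alone (0.30, 0.085, 0.36 and 0.25), Bbc3 with limma-voom (-0.027) and Mcl1 with chromosome medians removed (0.044). Outside the tally, Bcl2 (-0.19), Bok (-0.17), Ripk1 (-0.00067) and Tradd (0.092) also changed sign with chromosome medians removed. With 1 sample left out, the change of Bak1 ranged from -0.21 to 0.076 (0.039 without scrambled control replicate 1), Bbc3 from -0.12 to 0.21, Mcl1 from -0.20 to 0.24, Trp53 from -0.26 to 0.032 and Mlkl from -0.21 to 0.44, none of them past the threshold. The causes were not tested.

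Same-numbered samples correlated in their deviations at -0.14, 0.078 and -0.028, so the numbers did not pair them. With the replicate block, 39 genes and 0 cell death genes passed, and Dapk1 was at -4.67 with an edgeR adjusted p of 0.120. At this depth a gene such as Ripk3, with 6 reads in scrambled control replicate 2, cannot show a small change.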
